A study of Mus musculus with 4 samples.

Results

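The genes described here are 34 mouse genes that copy DNA or that bring a cell into S phase, chosen by symbol from a fixed list, and all 34 were among the 17921 genes of the deposited expression table. They encode the proteins that license replication origins, the replicative helicase, polymerases, sliding clamp and clamp loader, enzymes of deoxynucleotide synthesis, and regulators of the step from G1 to S phase. RNA was sequenced from Th17 cells, a class of helper T cell known for interleukin 17. The PRAK KO group held 2 mice (KO 1 and KO 2) and the wild-type group 2 mice (WT 1 and WT 2), with 1 library per mouse. Each culture began with naive CD4+ T cells of 1 mouse, was driven towards Th17 cells for 72 h and was harvested whole. PRAK is a p38-activated protein kinase encoded by Mapkapk5. The labels give no knockout allele, strain, sex or age, nor whether the deletion was limited to T cells.

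DNA replication begins with licensing. The origin recognition complex, with CDC6 and CDT1, loads the ring of MCM2 to MCM7 onto origins in G1, and CDC45 and the GINS complex then turn that ring into an active helicase as S phase starts. Polymerase alpha with primase lays down primers, polymerases delta and epsilon extend them on the PCNA clamp that the RFC complex loads, and FEN1 and LIG1 join the lagging strand. Most of these genes are transcribed around the G1 to S transition under E2F factors, which RB-family proteins hold in check until cyclin D and cyclin E kinases release them. Helper T cells divide fast in the first days after activation, so these genes are strongly expressed in such cultures.

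Promoter sequences are shown for 3 members chosen after their values were seen. Tyms is the member that passed the test, and Mcm2 and Mcm6 are subunits of the same ring, neither of which passed it, that differ in E2F-type motifs. The 250 bases before the start used in the RefSeq promoter table are given 5′ to 3′ on the gene's strand, and capitals mark matches to the E2F-type letters searched. They lie on the minus strand of GRCm38.p6 at chr5:30073626-30073875 for Tyms, chr6:88898781-88899030 for Mcm2 and chr1:128359706-128359955 for Mcm6. The last 20 bases printed for Tyms lie inside its RefSeq gene span.
Tyms: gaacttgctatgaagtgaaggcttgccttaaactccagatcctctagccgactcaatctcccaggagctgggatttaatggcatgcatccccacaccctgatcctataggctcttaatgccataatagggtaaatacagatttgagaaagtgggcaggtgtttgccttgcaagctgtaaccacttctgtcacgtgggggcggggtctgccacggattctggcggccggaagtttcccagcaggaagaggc
Mcm2: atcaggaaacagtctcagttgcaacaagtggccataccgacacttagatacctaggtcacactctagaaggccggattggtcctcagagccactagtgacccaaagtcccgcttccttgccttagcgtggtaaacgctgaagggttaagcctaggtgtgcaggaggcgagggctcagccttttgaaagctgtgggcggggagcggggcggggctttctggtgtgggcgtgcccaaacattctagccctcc
Mcm6: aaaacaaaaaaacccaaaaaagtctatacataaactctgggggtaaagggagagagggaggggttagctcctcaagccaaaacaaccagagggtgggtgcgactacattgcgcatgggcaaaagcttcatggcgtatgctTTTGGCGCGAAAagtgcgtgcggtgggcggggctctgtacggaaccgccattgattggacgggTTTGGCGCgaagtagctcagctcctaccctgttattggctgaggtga

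Those letters were TTTCCCGC, TTTCGCGC, TTTGCCGC and TTTGGCGC, on either strand, in a window of 300 bases that also takes in 50 bases after the start. Matches on opposite strands can overlap, as the first and second of the 3 in Mcm6 do, at 110 and 106 bases before the start. RefSeq promoters were found for 28 members, of which 13 (46.4%) held at least 1 match, against 4.65% of 10163 tested genes that have a promoter sequence. Tyms and Mcm2 held none. CCAAT, the letters bound by NF-Y, was found in 16 of the 28 (57.1%, against 43.2%), and TTTGAA, a cell cycle element typical of mitotic genes, in 4 (14.3%, against 14.5%). The 13 members with an E2F-type match had a median log2 fold change of 0.16 (KO over WT), and the 15 with a promoter but no match had 0.33. The letters are a description of these windows and do not show binding.

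Total expected counts per library, the authors' estimates of reads per gene, lay between 19418012 and 20125124. Mapkapk5 was lower in the KO libraries, at 20.04 and 21.6 CPM (counts scaled to the library total) in KO 1 and KO 2 against 35.6 and 38.4 CPM in WT 1 and WT 2 (log2 fold change -0.83 ± 0.13 SE, adjusted p = 0.0194, edgeR quasi-likelihood test; 0.0919 without WT 1 and 0.169 without WT 2). Reads remained in both KO libraries, and the deleted stretch is not named in the labels. All 34 members had counts of at least 256 in every library and all passed the filter on low counts, so none was lost. Levels are CPM scaled by TMM factors, which correct for library composition. Of 6 T cell markers 0 were called, with summed levels of 1907 and 2649 CPM in KO 1 and KO 2 and of 2480 and 2562 CPM in WT 1 and WT 2. Of 6 Th17 markers 1 was called higher and 1 lower, with sums of 3059 and 1272 CPM in KO 1 and KO 2 against 3189 and 2881 CPM in WT 1 and WT 2. Markers of 3 other cell classes summed higher in KO libraries. Of 12 myeloid markers 7 were called higher and 11 had both KO libraries above both WT libraries (5.14% and 31.7% of all genes tested), with sums of 159.9 and 321 CPM in KO against 68.7 and 99.6 CPM in WT. Of 7 markers of CD8 T and NK cells 1 was called higher and 5 were without overlap. Among the 5 was Ncr1, untested, with 1 read in each KO library and 0 in both WT libraries. Gzmb had 529.8 and 200.6 CPM in KO 1 and KO 2 against 118.0 and 190.3 CPM in WT 1 and WT 2. In the same order, Cd8a had 185.1 and 103.7 against 11.84 and 49.09 CPM. Cd8b1 had 97.57 and 77.09 against 19.07 and 45.28 CPM. Nkg7, the 1 call, had 45.02 and 96.68 against 13.64 and 22.69 CPM. Klrd1 and Prf1 overlapped between the genotypes. The sums of the 7 were 895 and 498 CPM in KO against 180.1 and 335 CPM in WT. For 5 B cell markers (1 called higher, 4 without overlap) they were 103.4 and 86.9 CPM in KO against 26.3 and 69.5 CPM in WT. For 6 erythroid markers they were 1.11 and 3.03 CPM in KO against 2.56 and 7.005 CPM in WT, with 0 called. The part of these cells in the results below was not tested, and in bulk RNA fewer cells of a type and less RNA per cell cannot be told apart.

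Per unit of length, the members spanned a wide range. Mean TPM (a level scaled for gene length and library) over the 4 libraries ran from 11.3 for Gins3, a GINS subunit, to 645 for Pcna, the sliding clamp. Among the ring subunits the mean level was 253 TPM for Mcm3, 233 for Mcm6, 229 for Mcm7, 165 for Mcm5, 156 for Mcm4 and 119 for Mcm2. Of the nucleotide enzymes, Rrm2 averaged 222 TPM and Tyms 37.1 TPM.

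In PRAK KO cells set against WT cells, 1 of these genes changed. Tyms, the thymidylate synthase that makes dTMP for DNA, rose 2.01-fold. The other 33 members did not pass the test. Of these, 30 had a higher mean in KO and 3 a lower one, with values from -0.15 to 0.62 on the log2 scale. Of 34 members 1 was called higher and 0 lower (edgeR quasi-likelihood test, adjusted p under 0.05), or 2.94%, where 13.4% of 12680 genes tested were called, 5.14% of them higher and 8.23% lower. At an unadjusted p under 0.05 there were 10 members, all higher in KO (29.4%), against 15.1% of all genes that were higher at that level and 31.7% in either direction. DESeq2 called 2 members higher and 0 lower, where it called 7.11% of all genes higher and 9.57% lower. The median log2 fold change was 0.25 over the members and 0.02 over all genes tested. Scaling by library size alone moved both up, to 0.34 and 0.12, so scaling moved all genes and the members alike by about 0.1 on the log2 scale.

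**Figure D1:**
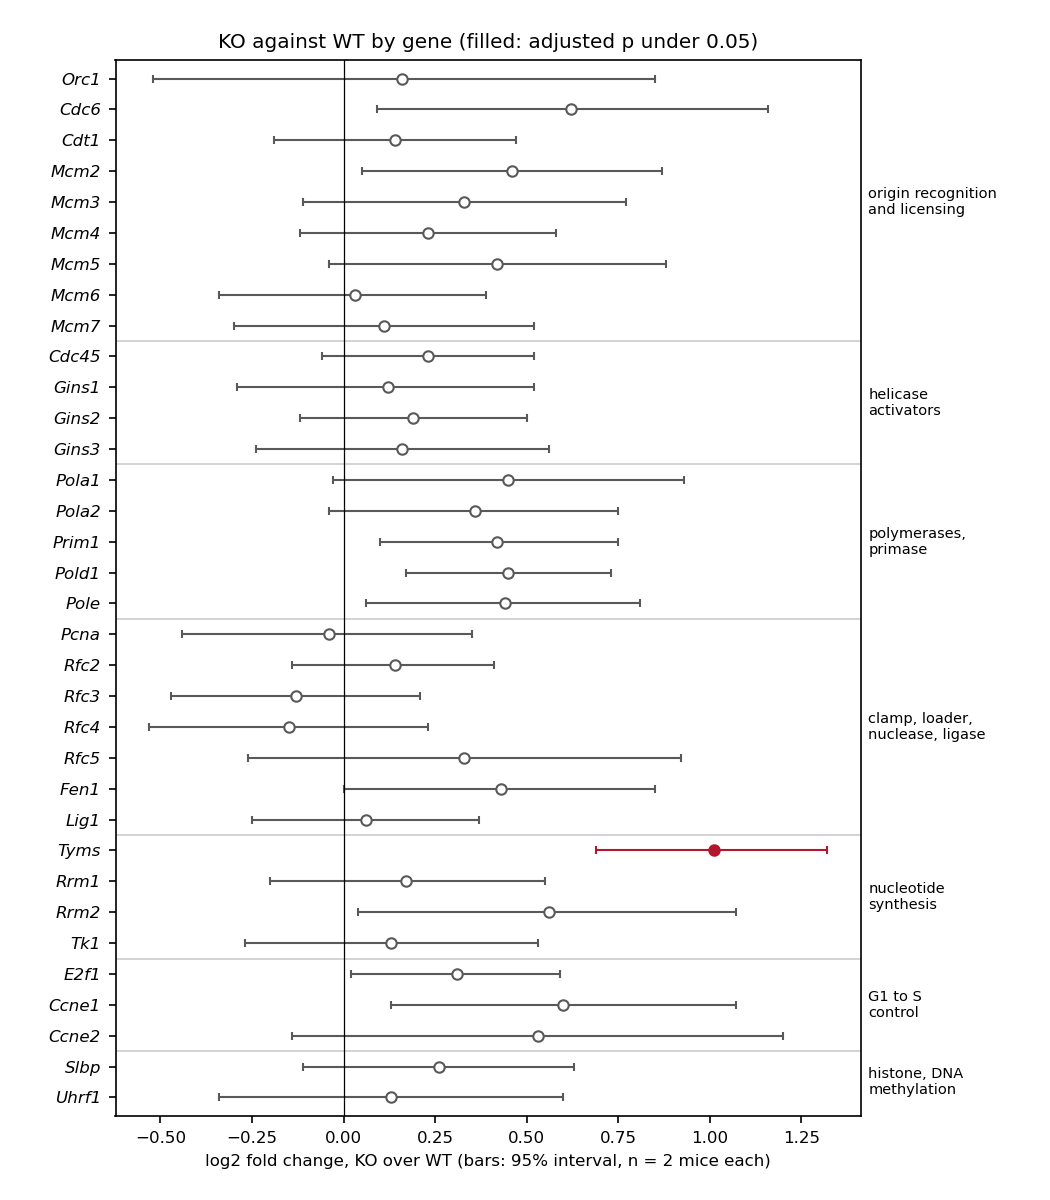
Log2 fold change of each of the 34 genes, KO over WT, with bars for the 95% interval (n = 2 mice per genotype), grouped by role. Tyms at 1.01 is the one filled point; Pcna, Rfc3 and Rfc4 lie below 0.

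The libraries showed a fixed order for most members. Both KO libraries lay above both WT libraries for 21 of 34 members (61.8%), where 31.7% of all genes tested did so, and no member had both KO libraries below both WT libraries (31.3% of all genes). KO 1 was the highest of the 4 libraries for 32 members. It lay above KO 2 for all 34, where 49.8% of all genes did, by a median of 0.31 on the log2 scale. WT 1 lay above WT 2 for 31 of 34 (48.2% of all genes), by a median of 0.13. For 19 of 34 members the gap between KO 1 and KO 2 was larger than the fold change between genotypes. The gap between WT 1 and WT 2 was larger than it for 7. These counts were not made over all genes.

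**Figure D2:**
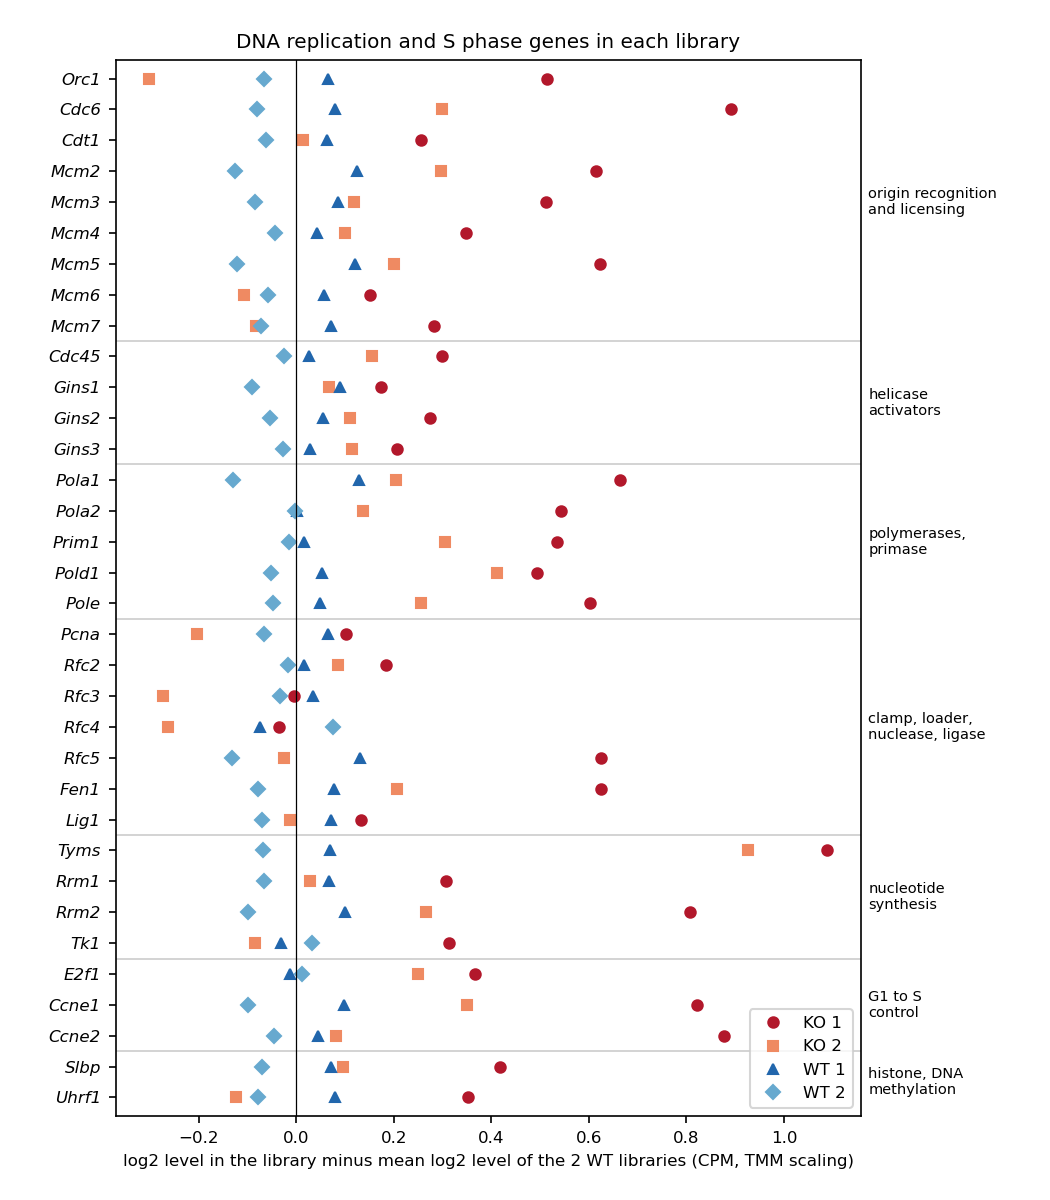
Log2 level of each gene in each library, relative to the mean log2 level of the 2 WT libraries (CPM with TMM scaling). KO 1 lies to the right of KO 2 in all 34 rows, and Tyms is the row where both KO libraries stand far from both WT libraries.

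Among licensing genes, Cdc6, the loading factor of the MCM ring (gene ID 23834, chr11:98907709-98923942), stood at 96.9 CPM in KO 1 and 64.2 CPM in KO 2, against 55.2 and 49.4 CPM in WT 1 and WT 2. The groups did not overlap, but KO 1 was far above KO 2. The log2 fold change was 0.62 ± 0.21 (SE; adjusted p = 0.115, edgeR quasi-likelihood test). Mcm2 had 273 and 219 CPM in KO 1 and KO 2, against 194.6 and 163.7 CPM in WT 1 and WT 2. Again the groups did not overlap (log2 fold change 0.46 ± 0.16, adjusted p = 0.125). Mcm6, by contrast, had 411 and 343.5 CPM in KO and 385 and 356 CPM in WT, so its ranges overlapped (0.03 ± 0.15, adjusted p = 0.924). The 95% interval for Mcm6 ran from -0.34 to 0.39. The log2 ratio of Mcm2 to Mcm6 within a library, which no scaling can move, was -0.59 and -0.65 in KO 1 and KO 2 and -0.98 and -1.12 in WT 1 and WT 2. That pair was picked after its values were seen.

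The other ring subunits lay between these, with log2 fold changes of 0.42 for Mcm5, 0.33 for Mcm3, 0.23 for Mcm4 and 0.11 for Mcm7. Their adjusted p-values lay between 0.185 for Mcm5 and 0.687 for Mcm7. Orc1, the origin recognition subunit that comes and goes with the cell cycle, had 41.6 CPM in KO 1 and 23.7 CPM in KO 2, against 30.5 and 27.9 CPM in WT 1 and WT 2. The KO mice thus lay on either side of WT (log2 fold change 0.16 ± 0.27, adjusted p = 0.725). Cdt1, the partner of CDC6 in licensing, overlapped too (0.14 ± 0.13, adjusted p = 0.517). All 9 licensing genes had a positive value, 5 of them without overlap (55.6%, against 31.7% of all genes), and 0 were called.

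The helicase activators differed little in size. Still, Cdc45, Gins2 and Gins3, 3 of the 4, had both KO libraries above both WT libraries (75.0%, against 31.7% of all genes). Cdc45 had 90.1 and 81.6 CPM in KO 1 and KO 2, against 74.5 and 71.9 CPM in WT 1 and WT 2, without overlap (log2 fold change 0.23 ± 0.12, adjusted p = 0.241). The GINS subunit genes Gins1, Gins2 and Gins3 had values of 0.12, 0.19 and 0.16, with adjusted p-values of 0.658, 0.346 and 0.535. In this group the KO mice were close to each other, with a median log2 gap of 0.12.

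With both KO mice, the 5 polymerase and primase genes were alike in size of difference. Their log2 fold changes lay between 0.36 and 0.45, and 0 passed the test. Without KO 1 the values ran from 0.14 for Pola2 to 0.41 for Pold1, with a median of 0.25. All 5 had both KO libraries above both WT libraries, where 31.7% of all genes did. Pold1, the catalytic subunit of polymerase delta (gene ID 18971, chr7:44532744-44548815), had 186.5 CPM in KO 1 and 176 CPM in KO 2, against 137.4 and 127.7 CPM in WT 1 and WT 2. Here the KO mice were close (a log2 gap of 0.08), and the value fell just outside the threshold (0.45 ± 0.11, adjusted p = 0.0561). It passed with DESeq2 (adjusted p = 0.0271) and with scaling by library size alone (0.0352; 2 members were then higher, against 7.24% of all genes).

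Prim1, the catalytic primase subunit, had 64.2 and 54.7 CPM in KO 1 and KO 2, against 44.8 and 43.8 CPM in WT 1 and WT 2 (0.42 ± 0.13, adjusted p = 0.0889). Pole, the catalytic subunit of polymerase epsilon, had 179.8 and 141.3 CPM in KO and 122.4 and 114.5 CPM in WT (0.44 ± 0.15, adjusted p = 0.115). Both genes were apart in the genotypes, and the KO mice were spread more widely than the WT mice. Pola1 and Pola2, the catalytic and the B subunit of polymerase alpha, had values of 0.45 and 0.36 (adjusted p = 0.181 and 0.198).

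For the clamp, its loader and the enzymes of lagging strand joining, the median was 0.06. Both KO libraries lay above both WT libraries for 2 of these 7 genes (28.6%, against 31.7% of all genes). Pcna (gene ID 18538, chr2:132249286-132253180) had 463 CPM in KO 1 and 374.5 CPM in KO 2, against 451.5 and 412 CPM in WT 1 and WT 2. KO 1 was above both WT libraries and KO 2 below both, so the groups overlapped. The log2 fold change was -0.04 ± 0.16 with a 95% interval from -0.44 to 0.35 (adjusted p = 0.875). Scaling by library size alone gave 0.05, the opposite sign.

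Of the RFC clamp loader genes, Rfc3 and Rfc4 had negative values (-0.13 and -0.15), Rfc2 a small positive one (0.14) and Rfc5 a larger one (0.33), with adjusted p-values between 0.39 for Rfc5 and 0.554 for Rfc4. Rfc5 had 79.96 CPM in KO 1, but 51.0 CPM in KO 2, against 56.8 and 47.4 CPM in WT 1 and WT 2, so KO 1 stood alone above the rest and KO 2 lay between the WT libraries. Fen1, the nuclease that trims Okazaki fragments, had 121.3 and 90.8 CPM in KO and 83.0 and 74.5 CPM in WT (0.43 ± 0.17, adjusted p = 0.154). Lig1, the ligase of the same step, overlapped between the genotypes (0.06 ± 0.12, adjusted p = 0.773).

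Nucleotide synthesis held the member that changed. Tyms (gene ID 22171, chr5:30038546-30073645) had 105.1 CPM in KO 1 and 93.9 CPM in KO 2, against 51.8 and 47.1 CPM in WT 1 and WT 2. Both KO mice were high and close to each other, and the groups were far apart. The mean was 99.5 ± 7.91 CPM in KO against 49.5 ± 3.32 CPM in WT (SD over 2 mice each). On the log2 scale the difference was 1.01 ± 0.13 (SE) with a 95% interval from 0.69 to 1.32 (adjusted p = 0.0102, edgeR quasi-likelihood test). The call held in each alternative tried except that without WT 2 (adjusted p = 0.0571). No gene of the table overlaps Tyms in GENCODE M21.

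Rrm1 and Rrm2, the large and small subunits of ribonucleotide reductase, had values of unlike size, a contrast that was not itself tested. Rrm2 had 359 CPM in KO 1 and 246.7 CPM in KO 2, against 219.8 and 191.5 CPM in WT 1 and WT 2 (log2 fold change 0.56 ± 0.21, adjusted p = 0.134). Rrm1 had 374 and 308.5 CPM in KO and 317 and 289 CPM in WT, with overlap (0.17 ± 0.15, adjusted p = 0.472). Tk1, the salvage kinase for thymidine, had 94.7 CPM in KO 1 and 71.8 CPM in KO 2, against 74.5 and 77.8 CPM in WT (0.13 ± 0.16, adjusted p = 0.629). So of the enzymes that supply thymidine nucleotides, Tyms rose while the KO values of Tk1 lay on either side of WT.

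The 3 regulators of the G1 to S step had a median of 0.53, with no call, and a median of 0.25 without KO 1. Ccne1, cyclin E1 (gene ID 12447, chr7:38097984-38107490), had 71.7 and 51.7 CPM in KO 1 and KO 2, against 43.4 and 37.9 CPM in WT 1 and WT 2 (0.60 ± 0.19, adjusted p = 0.0944). Ccne2, cyclin E2, had 48.5 CPM in KO 1 but 27.9 CPM in KO 2, against 27.2 and 25.6 CPM in WT (0.53 ± 0.27, adjusted p = 0.241). Both cyclin E genes were highest in KO 1, and for Ccne2 the level of KO 2 was close to WT. E2f1, the transcription factor of S phase genes, had 63.7 and 58.8 CPM in KO and 49.0 and 49.9 CPM in WT (0.31 ± 0.11, adjusted p = 0.134). Slbp, which binds histone mRNA, and Uhrf1, which carries DNA methylation to new strands, had values of 0.26 and 0.13 (adjusted p = 0.286 and 0.675).

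Each KO mouse set alone against the 2 WT mice gave different counts. With KO 1 alone (without KO 2), 24 of 34 members were called higher and 0 lower, where 22.2% of all genes were called higher and 24.0% lower. With KO 2 alone (without KO 1), 5 were called higher, Tyms, Pold1, Cdc6, Ccne1 and Prim1, and 0 lower, where 17.3% of all genes were higher and 18.7% lower. In these fits the spread comes from the WT mice alone, and the lone KO library is assumed to vary like them. The median log2 fold change of the members was 0.39 with KO 1 alone and 0.10 with KO 2 alone. Without WT 1 there was 1 higher call, where 1.59% of all genes had one, and without WT 2 there were 0, where 1.85% had one.

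**Figure D3:**
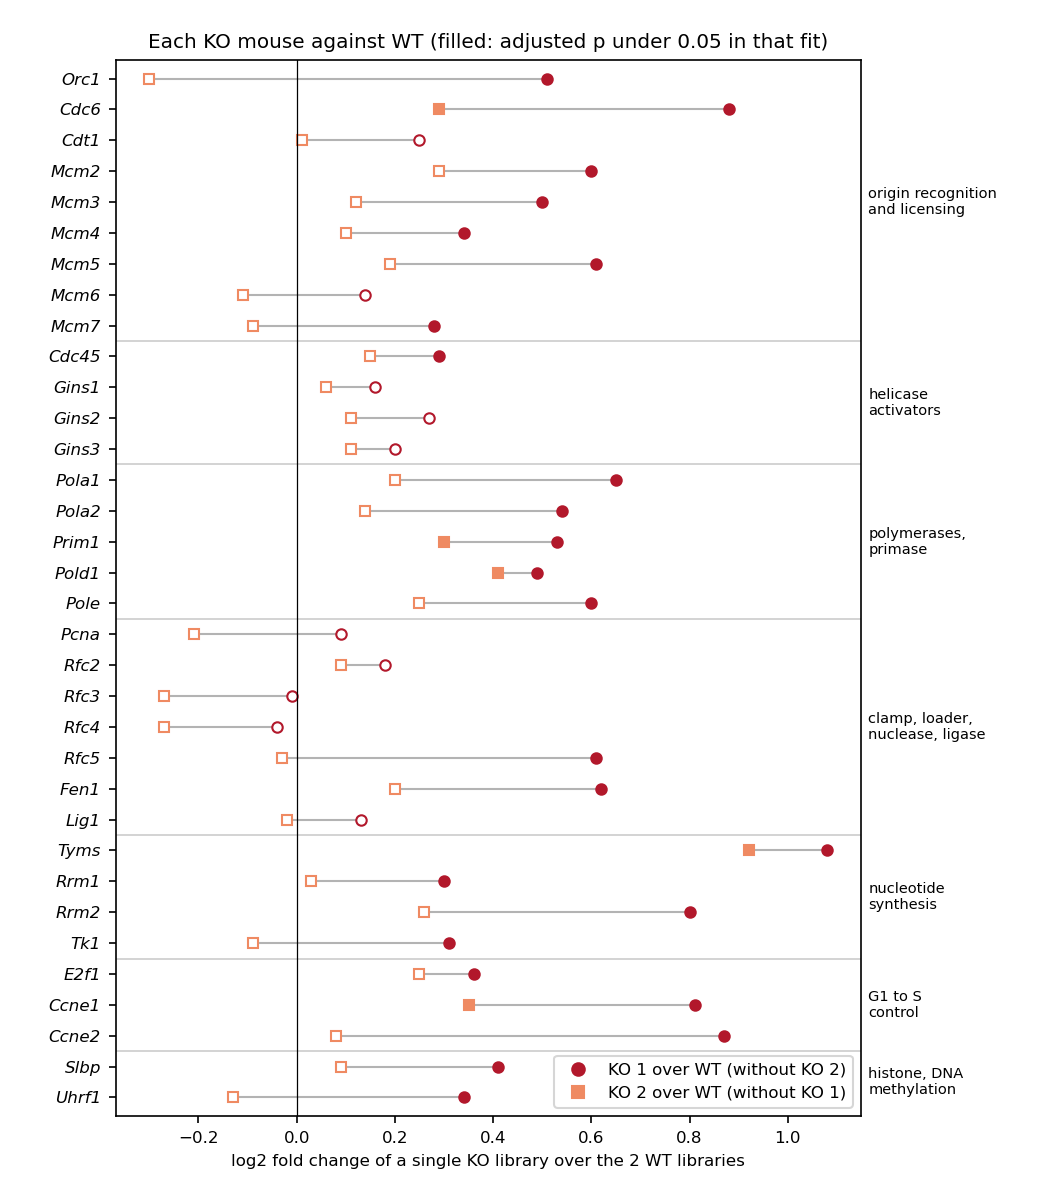
Log2 fold change of each KO library alone over the 2 WT libraries, with filled symbols for an adjusted p under 0.05 in that fit. KO 1 (circles) has 24 filled points and KO 2 (squares) has 5, and the squares lie left of the circles in every row.

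Mitotic genes were used to ask whether the replication genes moved with division genes at large. The list of 24 was Mki67, Top2a, Cdk1, Ccnb1 and others of spindle and checkpoint function. In KO cells 4 of the 24 fell, Bub1 (log2 fold change -0.77), Ccnb2 (-0.68), Cenpa (-0.64) and Cenpf (-0.56), and 0 rose, with adjusted p-values between 0.0235 and 0.042 (16.7% lower, against 8.23% of all genes). Their median was -0.30, and all 24 values were negative, though 2 were positive with scaling by library size alone and with limma on log2(TPM + 1), and 5 without KO 2, where the median was -0.12. Library size alone called 2 of the 24 lower, where 6.81% of all genes were, and limma 0, where 6.1% were. Bub1, a spindle checkpoint kinase, had 61.2 and 51.2 CPM in KO 1 and KO 2, against 96.7 and 94.7 CPM in WT 1 and WT 2. Mki67, the proliferation marker, had 832 and 621.5 CPM in KO and 895.5 and 849.7 CPM in WT (-0.26 ± 0.19, adjusted p = 0.383). In the promoter windows of 20 of these genes, TTTGAA was found in 75.0%, CCAAT in 85.0% and the E2F-type letters in 5.0%. The 4 mitotic calls did not hold without WT 1 or without WT 2, where calls were fewer over all genes as well. The median of the 24 was -0.27 without WT 1, -0.31 without WT 2 and -0.49 without KO 1.

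Set against the mitotic genes, the replication genes separated the genotypes more evenly than they did alone. The mean log2 CPM of the 34 members was 6.90 in KO 1 and 6.56 in KO 2, against 6.51 and 6.40 in WT 1 and WT 2. For the 24 mitotic genes it was 6.92 and 6.58 in KO, against 7.12 and 7.08 in WT. Between the KO mice the 2 lists thus differed by about the same amount and in the same direction. The difference of the means within a library, which no scaling can move, was -0.03 and -0.02 in KO 1 and KO 2, against -0.60 and -0.68 in WT 1 and WT 2. The KO mice were alike on this measure and the genotypes were 0.62 apart. Without Tyms it was -0.02 in both KO libraries, against -0.58 and -0.66 in WT. Both lists entered into this: the members' mean was 6.73 ± 0.236 in KO and 6.46 ± 0.082 in WT (a difference of 0.27), and the mitotic mean was 6.75 ± 0.243 in KO and 7.10 ± 0.025 in WT (-0.35; SD over 2 mice each). A list with no difference between the genotypes would thus stand 0.35 higher against the mitotic genes in KO. With 2 mice per genotype the exact permutation test cannot go below p = 0.333, and no test was made of these list means.

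**Figure D4:**
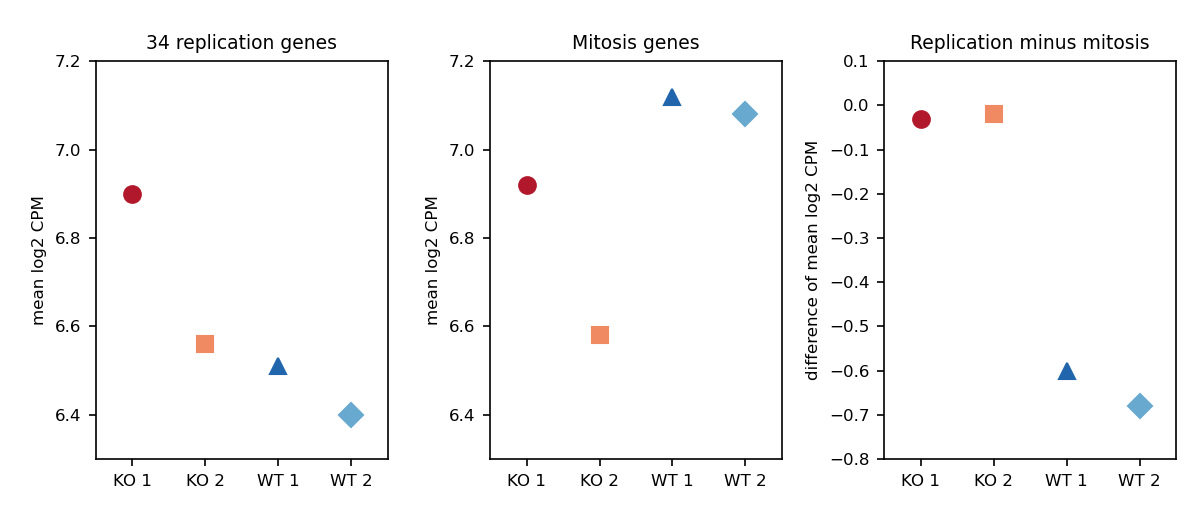
Mean log2 CPM in each library of the 34 replication genes, of 24 mitosis genes, and the difference of these means. Both lists are lower in KO 2 than in KO 1, while the difference is near 0 in both KO libraries and at -0.60 and -0.68 in the WT libraries.

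Other genes of the same pathways were taken from 8 lists with 141 tested genes, of which 8 rose and 10 fell (12.8%, against 13.4% of all genes). Without WT 1, 0 were higher and 3 lower (Cdkn1b, Rbl2 and Atr), and without WT 2, 0 were higher and 2 lower (Cdkn1b and Rbl2). Of 40 other replication genes 2 rose and 0 fell (5.0% higher, against 5.14% of all genes, and 8.23% of all genes lower). Pold2, a small subunit of polymerase delta, had 84.6 and 98.5 CPM in KO 1 and KO 2, against 57.7 and 57.5 CPM in WT 1 and WT 2 (log2 fold change 0.67 ± 0.13, adjusted p = 0.0285). Top1, the topoisomerase that relieves supercoils ahead of the fork, had 197 and 165 CPM in KO and 112 and 99.5 CPM in WT (0.78 ± 0.14, adjusted p = 0.0262). Pold4, another subunit of polymerase delta, ran the other way, at 67.7 and 117.8 CPM in KO and 163.6 and 222 CPM in WT (-1.06 ± 0.29, adjusted p = 0.0728). DESeq2 called Pold4 lower (adjusted p = 0.0021). With DESeq2, 3 of the 40 were higher and 1 lower, where 7.11% of all genes were higher and 9.57% lower. Rpa2, of the single-strand binding complex, did not pass (0.51, adjusted p = 0.0546). Of 12 genes of replication-coupled chromatin 0 passed the edgeR test, and DESeq2 called 0. In the edgeR test 2 had an unadjusted p under 0.05 (16.7%, against 31.7% of all genes). All 12 had positive values, among them Chaf1b of the histone chaperone CAF-1 at 0.49 (adjusted p = 0.111), Asf1a at 0.38, Supt16 at 0.35 and Rbbp4 at 0.33. Their median was 0.32, but 0.08 without KO 1, where 8 were positive and 4 negative. Without WT 2, 11 were positive and 1 negative.

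Deoxynucleotide supply was the list with the most calls, where 13.4% of all genes were called. The list also takes in enzymes of general purine, pyrimidine and folate metabolism. Of 18 tested genes 6 rose and 1 fell (38.9%), while limma on log2(TPM + 1) called 2 higher, and without either WT library 0 were higher. Dctd and Dtymk, the deaminase and the kinase on either side of thymidylate synthase, rose by 0.82 and 0.51 (adjusted p = 0.0337 and 0.0412). Dctd had 23.04 and 19.7 CPM in KO and 12.3 and 11.9 CPM in WT. Mthfd2 (0.87), a mitochondrial folate enzyme, Gart (0.86) of purine synthesis, and Umps (0.74) and Ctps (0.64) of pyrimidine synthesis rose as well, with adjusted p-values between 0.0344 and 0.0453. Samhd1, which breaks down deoxynucleotides, fell to 258 and 344 CPM in KO 1 and KO 2, against 535 and 570.2 CPM in WT 1 and WT 2 (-0.88 ± 0.18, adjusted p = 0.0349). Paics and Impdh2, which also make purines, had negative values (-0.16 and -0.26) and did not pass. Of genes that act directly on deoxynucleotides or deoxynucleosides, Dut (0.26), Rrm2b (0.03), Dck (-0.12) and Tk2 (-0.41) did not pass. Dctd, Dtymk and Samhd1 did.

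**Figure D5:**
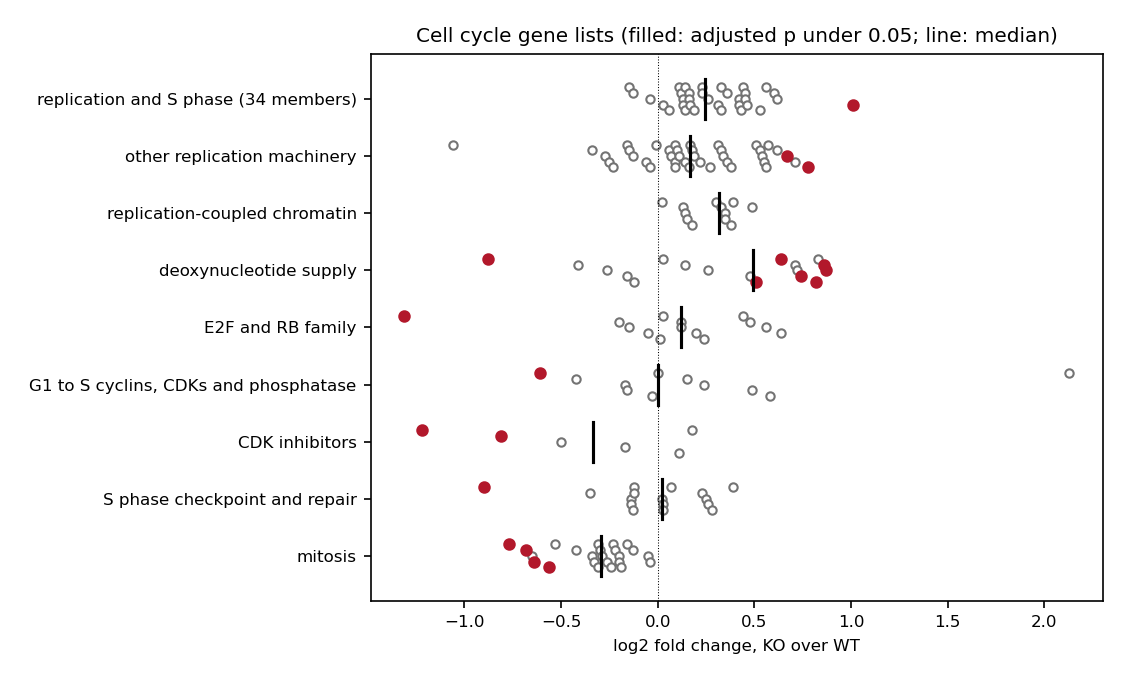
Log2 fold change, KO over WT, of the tested genes in the replication list and in 8 other cell cycle lists, with a line at each median. Filled points passed the test; 6 of 18 deoxynucleotide genes are filled to the right, and 4 of 24 mitosis genes and 2 of 6 CDK inhibitors to the left.

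Genes that restrain entry into S phase fell in part. Cdkn1b, the CDK inhibitor p27, had 64.04 CPM in KO 1 and 74.6 CPM in KO 2, against 156.7 and 166.7 CPM in WT 1 and WT 2. The genotypes were far apart and the mice of each close together (log2 fold change -1.22 ± 0.13, adjusted p = 0.00681). Cdkn2d, another CDK inhibitor, had 89.4 and 107.3 CPM in KO and 168 and 175.8 CPM in WT (-0.81 ± 0.13, adjusted p = 0.021). Cdkn1a, the p53 target p21, had 478 CPM in KO 1 but 787 CPM in KO 2, against 536 and 581 CPM in WT, so the KO mice lay on either side of WT (0.18 ± 0.25, adjusted p = 0.667). Cdkn1c (p57) and Cdkn2c (p18) had values of -0.50 and -0.17 (adjusted p = 0.402 and 0.478). Of 6 tested CDK inhibitors 2 fell and 0 rose (33.3% lower, against 8.23% of all genes), and Cdkn2a was too low to test. The call of Cdkn2d did not hold without WT 1 or without WT 2, where calls were fewer over all genes as well.

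Rbl2, the RB relative p130 that represses cell cycle genes in resting cells, had 111.4 and 180.4 CPM in KO 1 and KO 2, against 344 and 381 CPM in WT 1 and WT 2 (-1.31 ± 0.24, adjusted p = 0.0278). It was the 1 call among 14 genes of the E2F and RB family (7.14%, against 13.4% of all genes). Tfdp1, the E2F partner, had 324 and 247.7 CPM in KO and 198 and 167.7 CPM in WT and did not pass (0.64, adjusted p = 0.0711), nor did E2f7, a repressor of the E2F family (0.56, adjusted p = 0.0866), or Lin9, of the MuvB complex (0.44, adjusted p = 0.111). The calls of Cdkn1b and Rbl2 held without each of the 4 libraries in turn. Among 11 cyclins, kinases and related genes 1 was called (9.09%, against 13.4% of all genes), and the call depended on the setting. Ccnd3, cyclin D3, was the 1 call (-0.61, adjusted p = 0.0439), and it was lost with library size alone (0.0633), limma (0.0735), without WT 1 (0.367) and without WT 2 (0.455). Ccnd2, cyclin D2, did not pass (0.58, adjusted p = 0.0613), but was called higher with library size alone (0.0419), limma (0.0363) and DESeq2 (0.00187). Ccnd1, cyclin D1, at 1.42 and 2.04 CPM in KO and 0.579 and 0.233 CPM in WT, had a log2 fold change of 2.13 (adjusted p = 0.0648), and Cdc25a, a phosphatase that activates CDKs, 0.49 (0.116). Myc averaged 483 ± 112.5 CPM in KO and 482 ± 9.21 CPM in WT (SD, n = 2 each; 0.00, adjusted p = 0.992). Of 16 checkpoint and repair genes 1 changed: Atr, the kinase that senses stalled forks, had 39.9 and 46.8 CPM in KO and 78.8 and 83.6 CPM in WT (-0.90 ± 0.13, adjusted p = 0.0151, and 0.0608 without WT 2). Atm, the kinase that senses double-strand breaks, had a value of 0.39 (adjusted p = 0.0921), Chek2, a checkpoint kinase, -0.35 (0.164), and Rad1, of the checkpoint clamp, 0.28 (0.234). The 1 call among these 16 genes was 6.25%, against 13.4% of all genes.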

How the data were processed

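The deposited table gives expected counts (estimated reads per gene, not normalised), FPKM and TPM, one column per mouse. Per the file headers, the authors made these FPKM values, scaled to length and library size, and these TPM values, scaled to a fixed sum per library. Named without role or order in the submitters' processing notes are RSEM 1.2.12, HISAT2 2.0.4, Bowtie2 2.2.5 and the build GRCm38.p6. Not given in the sources used here are the kit, strand setting and annotation. For the 10 members whose span overlaps an opposite-strand gene of the table, reads from the shared stretch cannot be told apart without strand. The length of that stretch was not measured. Counts were not whole for 11 members, which RSEM gives where reads are shared.

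Here the deposited expected counts were rounded, filtered with filterByExpr (minimum count 10, total 15; 12680 genes kept, 5241 removed) and tested by robust quasi-likelihood with TMM factors, edgeR 4.0.16 under R 4.3.3, genotype being the single term. P-values were adjusted by Benjamini-Hochberg over all genes tested, with a threshold of 0.05. A standard error was computed as the fold change over the root of its F value, with 2 residual degrees of freedom and a prior of 3.58. TPM served to compare levels between genes. Other fits used DESeq2 1.42.0 and limma 3.58.1. The steps were tested on simulated data. FPKM values were not used in a test. Depth and the number of mice both limit precision.

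The members, lists and rule for named genes (all members, the 4 smallest p-values of each other list, Cdkn1a, Mki67 and Myc) were chosen with earlier results of these data known. Genes named beyond it were chosen after their values were seen. Coordinates are RefSeq GRCm38.p6, to which all 34 members were matched by gene ID. Replicates are separate mice per the labels.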

Additional observations from a re-analysis of the deposited data

How the results depend on the processing

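The labels give KO and WT mice the same numbers, but not that equal numbers share a litter or day. The KO 1 minus KO 2 and WT 1 minus WT 2 differences correlated across genes (r = 0.175), and with 2 pairs this does not pair the samples. With the number as a replicate block, 10 members were higher (against 10.6% of all genes; Cdc6, Mcm2, Pola1, Prim1, Pold1, Pole, Fen1, Tyms, Rrm2 and Ccne1), 1338 genes were higher and 1597 lower, and 21 genes of the other lists were higher. Scaling by library size alone and DESeq2 each gave 2 members higher, the second being Pold1, in place of 1. On log2(TPM + 1), limma gave 5 higher and 5 lower of 141 genes in the other lists, in place of 8 and 10. It called 4.91% of all genes higher and 6.1% lower. Leaving out 1 library each gave 0 to 24 members higher, 209 to 2881 genes higher and 450 to 3118 lower, and 0 to 53 higher and 2 to 42 lower in the other lists.

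Some members without a call changed sign. Pcna was 0.05 with scaling by library size alone and with limma, -0.21 to 0.09 over the fits without 1 library and 0.02 without WT 1. Without KO 1 and without KO 2, the values were -0.30 and 0.51 for Orc1, -0.11 and 0.14 for Mcm6, -0.09 and 0.28 for Mcm7, -0.03 and 0.61 for Rfc5, -0.02 and 0.13 for Lig1, -0.09 and 0.31 for Tk1, and -0.13 and 0.34 for Uhrf1. Without WT 2, Mcm6 was -0.04 and Lig1 -0.01. The cause was not tested. DESeq2 size factors, no filter, a stricter filter (a mean of at least 5 CPM) and the non-robust fit changed no member's direction or call. Every member had at least 256 reads per library, and the 2 mice per genotype limit the precision.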
